A study of Homo sapiens with 24 samples.

Results

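The comparison set the 6 libraries of cells that received a chemically synthesised guide RNA (syn-gRNA) against the 12 libraries of cells whose guide was transcribed from a plasmid, and these 18 libraries were all of their setups among the 24 of the series. They were chosen by the setup named in the labels alone, with no measured value. The 12 plasmid libraries fall into 6 that carried a mature guide (gRNA) and 6 that carried the unprocessed precursor form (pre-gRNA). Each setup has an arm of 3 libraries with a guide against the circular RNA ciRS-7, also called CDR1as (KD), and an arm of 3 with a non-targeting guide (NTC), so that the difference between setups could be read within each arm, across both arms and against each plasmid form.

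The nuclease in these setups is CasRx, an RNA-guided RNase that is steered to a transcript by a guide. All cells were labelled SH-SY5Y, a human neuroblastoma line. In both plasmid setups the guide plasmid went in together with a second plasmid for a CasRx-GFP fusion, carried by Lipofectamine 3000. The labels give no separate account of how the synthetic guide was delivered. RNA was taken 48 h after transfection and sequenced as non-stranded, poly(A)-selected libraries in paired reads of 100 bases. Nothing in the labels says whether the 3 libraries of a group came from separate cultures, so p-values here measure the spread between these libraries, which may be technical. No batch is named in the labels, and a difference between setups cannot be told apart from a difference in the day, the hands or the reagents with which each setup was processed.

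A synthetic guide enters the cell as finished RNA, whereas a plasmid guide must first be transcribed in the nucleus, usually by RNA polymerase III. Small nucleolar RNAs (snoRNAs) guide the chemical modification of ribosomal and spliceosomal RNA. In human cells most are cut from introns of host genes after splicing, and they carry no poly(A) tail. C/D box snoRNAs direct methylation of the ribose and H/ACA box snoRNAs direct conversion of uridine to pseudouridine. MALAT1 and NEAT1 are long non-coding RNAs that stay in the nucleus, in speckles and paraspeckles.

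The 5 snoRNAs that differed most between synthetic and plasmid libraries among those past the naming rule are shown first, since the results below turn on this class. Their sequences are those of GENCODE release 29, 5′ to 3′, and capitals mark the C box (TGATGA) near the start and the D box (CTGA) near the end of C/D box RNAs, or the ACA triplet near the end of an H/ACA box RNA. Positions are those of the deposited tables, on hg19. SNORD14E lies at chr11:122928785-122928869, SNORD14D at chr11:122929617-122929703 and SNORD14C at chr11:122930043-122930130, all on the minus strand inside the gene of the chaperone HSPA8. SNORD101 lies at chr6:133136446-133136518 on the plus strand inside RPS12, a ribosomal protein gene. Of 2 genes with the symbol SNORA66, the one shown lies at chr1:93306276-93306408 on the plus strand inside RPL5, another ribosomal protein gene.
SNORD14E: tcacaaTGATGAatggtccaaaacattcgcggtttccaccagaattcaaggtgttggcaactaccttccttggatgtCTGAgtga
SNORD14C: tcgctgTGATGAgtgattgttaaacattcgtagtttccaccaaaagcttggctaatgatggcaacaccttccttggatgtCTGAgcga
SNORD14D: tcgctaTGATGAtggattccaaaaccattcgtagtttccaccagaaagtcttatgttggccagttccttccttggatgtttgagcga
SNORD101: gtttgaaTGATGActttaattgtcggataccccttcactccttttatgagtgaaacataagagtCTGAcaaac
SNORA66: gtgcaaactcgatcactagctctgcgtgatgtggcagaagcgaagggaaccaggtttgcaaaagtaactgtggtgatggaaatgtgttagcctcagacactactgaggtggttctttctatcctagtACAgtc

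SNORD14D held TGATGA but no exact CTGA in the last 20 bases. Of the 278 genes named SNORD in GENCODE, 69.4% had TGATGA in the first 25 bases and 95.7% had CTGA in the last 20, and of the 147 genes named SNORA 91.2% had ACA in the last 9, searched on the RNA strand only. Among the 57 SNORD genes that were called higher in all 4 contrasts described below, 41 had TGATGA and 55 had CTGA in those windows. SNORD14C, SNORD14D and SNORD14E are similar copies, and how the authors' counting treated reads that match more than 1 copy is not given in the sources used here.

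Depth was not the same in all setups, since every pre-gRNA library was deeper than every gRNA and syn-gRNA library. Total counts per library ranged from 13226742 to 14554087 in the gRNA setup, from 15234523 to 16233777 in the pre-gRNA setup and from 10994974 to 15204685 in the syn-gRNA setup, and between 17477 and 18863 genes reached 10 counts in a library. Libraries of a setup that share a column letter (A, B or C) in the KD and NTC arms deviated from their group means together, with Pearson correlations across 13936 genes of 0.43 to 0.92 in the gRNA setup, 0.64 to 0.97 in the pre-gRNA setup and 0.36 to 0.78 in the syn-gRNA setup. The first principal component, 67.4% of the variance, spread the plasmid libraries by letter, and the second, 20.1%, placed the syn-gRNA libraries at the lower end, where the pre-gRNA B libraries lay among the syn-gRNA A libraries. The median SD of a gene's log2 level within groups was 0.444 for gRNA, 0.538 for pre-gRNA and 0.182 for syn-gRNA. Because same-letter libraries are not independent, counts of calls are also given for a fit in which they were summed, leaving 3 synthetic and 6 plasmid units. Single-gene SEs and p-values treat the 18 libraries as independent unless another fit is named, and so overstate certainty. The median SE over genes was 0.223 in that fit and 0.299 in the summed one.

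The labelled cell type was checked against its markers. Of 18 markers of noradrenergic neuroblastoma cells, 9 had at least 10 counts in every library, and TH and DBH, the enzymes of catecholamine synthesis that define the type, had 1 and 4 counts in all 18 libraries together. PHOX2A, a transcription factor of the same lineage, had 26. Of 13 kidney-lineage genes that are active in HEK293 cells, 12 had at least 10 counts in every library, HOXA9 and HOXD10 among them. The summed level of the noradrenergic list ran from 105 to 121 CPM in the syn-gRNA libraries, 104 to 167 in gRNA and 107 to 155 in pre-gRNA. That of the kidney-lineage list ran from 516 to 572, 533 to 612 and 485 to 600. Other noradrenergic markers were present, among them GATA2, TBX2 and HAND1 with means of 36.7, 22.3 and 21.2 CPM. Of 14 mesenchymal neuroblastoma markers, 11 had at least 10 counts in every library, while PAX8 of the kidney-lineage list had 5 counts in all. The label is therefore not borne out by TH, DBH and PHOX2A, but other members of the list are present. These lists do not settle which line it is, and the cells are called by their label only as a name.

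The targeted locus was compared first. ciRS-7 is a circle made from the CDR1-AS locus on the X chromosome, and LINC00632 is the long transcript whose gene lies upstream of it on the same strand. CDR1-AS (X, 139865341 to 139866825, plus strand) had 6, 5 and 4 counts in the syn-gRNA KD libraries and 16, 8 and 5 in the syn-gRNA NTC libraries. In the gRNA setup the counts were 0, 5 and 15 with the targeting guide and 3, 9 and 12 without, and in the pre-gRNA setup 7, 3 and 14 with and 3, 5 and 16 without. These counts overlap between all groups. Poly(A) selection removes most circular RNA, so they are no measure of the circle itself. Between synthetic and plasmid libraries the log2 difference of CDR1-AS was 0.10 ± 0.48 (SE) and that of CDR1, the gene on the opposite strand, was 0.23 ± 0.49, neither called by edgeR (adjusted p = 0.90 and 0.76), and without strand the reads of these 2 genes cannot be told apart.

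LINC00632 was higher with the synthetic guide in both arms. It had 90, 89 and 96 counts in the syn-gRNA KD libraries and 78, 114 and 132 in the syn-gRNA NTC libraries, against 18 to 59 in gRNA KD, 46 to 58 in gRNA NTC, 50 to 71 in pre-gRNA KD and 38 to 69 in pre-gRNA NTC. All 6 synthetic libraries lay above all 12 plasmid libraries. The log2 difference was 1.17 ± 0.19 (SE, edgeR, adjusted p = 0.00029), with 1.18 in the KD arm and 1.17 in the NTC arm. In the summed fit its adjusted p was 0.033. The difference was thus present with the non-targeting guide as well.

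Across all 19989 genes tested, edgeR's quasi-likelihood test called 2398 genes (12%) higher and 3142 (15.7%) lower in the synthetic libraries at a Benjamini-Hochberg adjusted p under 0.05, 27.7% in all. Against gRNA alone it called 3298 genes (16.5%) and against pre-gRNA alone 4963 (24.8%). With same-letter libraries summed these were 0 (3000 under an unadjusted p of 0.05) and 239, and with limma-voom 345 and 928. Leaving out gRNA NTC A, or both libraries of gRNA A, syn-gRNA B or syn-gRNA C, gave 2166, 1555, 1413 and 1205 calls against gRNA. Leaving out both libraries of pre-gRNA A, pre-gRNA C, syn-gRNA B or syn-gRNA C gave 3028, 9104, 2490 and 2157 against pre-gRNA. Within the KD arm 1299 genes (6.5%) were called and within the NTC arm 1205 (6.03%). These fell to 167 without syn-gRNA KD C and 322 without syn-gRNA KD B in the KD arm, and to 126 and 133 without the C and B libraries of syn-gRNA NTC in the NTC arm. Without the A library of gRNA, pre-gRNA or syn-gRNA in the KD arm they were 782, 693 and 697, and without gRNA NTC A or pre-gRNA NTC A in the NTC arm 528 and 525. Leaving out both A libraries of gRNA, pre-gRNA or syn-gRNA gave 823, 515 and 695 in the KD arm, both pre-gRNA C libraries 1950, and both syn-gRNA B or C libraries 210 and 100. In the NTC arm, both pre-gRNA A libraries left out gave 384, both syn-gRNA B or C libraries 68 and 51, and gRNA KD A 1931. The same test called 0 genes (0%) for the difference between the arms, with 66 genes under an unadjusted p of 0.05. DESeq2 and limma-voom with a same-letter correlation also called 0, with 35 and 761 (3.81%) under that p. Between gRNA and pre-gRNA it called 0 genes (0%) too, with 241 under an unadjusted p of 0.05, and 0 by DESeq2 and limma-voom. The edgeR test of the arm difference does not use the same-letter pairing of KD and NTC libraries. Its median SE was 0.463, against 0.221 with limma-voom's same-letter correlation. No arm difference was therefore detected by either with 3 libraries a group, which does not show that the arms were alike.

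A change was counted as held when a gene was called with the same sign against gRNA, against pre-gRNA, in the KD arm and in the NTC arm. There were 553 such genes higher (2.77%) and 335 lower (1.68%), 4.44% of those tested. The levels of the 6 synthetic libraries lay wholly above those of the 12 plasmid libraries for 947 genes (4.74%) and wholly below for 1073 (5.37%), 10.1% together. Among the 14036 protein-coding genes 146 (1.04%) were held higher and 294 (2.09%) lower, so most held increases were in non-coding genes and most held decreases in protein-coding ones. The median log2 difference over all genes was -0.05.

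The held counts rest on the syn-gRNA B and C libraries and on how same-letter libraries are treated. Without both C libraries of that setup 40 higher and 2 lower genes were held, and without both B libraries 56 and 3, although the 553 and 335 genes were all still called in the comparison with the plasmid libraries together. Leaving out single synthetic libraries gave 145 and 12 (KD C), 251 and 36 (KD B), 108 and 10 (NTC C) and 120 and 7 (NTC B) held genes, and without KD A, or both A libraries, 145 and 153 lower genes. Among plasmid libraries, leaving out gRNA NTC A gave 340 and 125, pre-gRNA NTC A 325 and 126, pre-gRNA KD A 156 lower, both pre-gRNA A libraries 240 and 61, both gRNA A libraries 218 lower and both pre-gRNA C libraries 563 lower. Calls against all plasmid libraries were 1230 higher and 1369 lower without both syn-gRNA C libraries, 1514 and 1432 without both syn-gRNA B libraries, and 3673 higher without both pre-gRNA C libraries. With same-letter libraries summed, 568 genes were called higher and 265 lower against all plasmid libraries. Of the held genes, 486 of the 553 and 219 of the 335 were among those called. That fit called 0 genes against gRNA alone and has no separate arms, so no gene could count as held in it. With limma-voom and an estimated correlation of 0.75 between same-letter libraries, 872 were called higher and 721 lower against all plasmid libraries. These included 514 and 319 of the held genes, of which 211 and 110 were also held by limma-voom.

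The snoRNA genes were higher with the synthetic guide. Of the 170 genes annotated as snoRNA, 110 (64.7%) were held higher and none lower by edgeR, beside 2.77% held higher among all genes. Among 96 C/D box genes 82 were called higher in the comparison with all plasmid libraries and 61 were held, with a median log2 difference of 1.93. For 76 H/ACA box genes the numbers were 70 and 53, with a median of 2.17. No member of either list was called lower. Of 389 C/D box genes in the annotation 96 passed the count filter, and of 399 H/ACA box genes 76. A gene could pass through the synthetic libraries alone, as SNORD82 did with 11 to 36 counts there and 0 to 3 in the plasmid libraries. The shares called and held, and the lack of lower calls, are therefore partly set by the filter. The summed fit still called 59 C/D and 56 H/ACA genes higher and limma-voom with a same-letter correlation called 66 and 54. Of 8 Cajal body RNAs, which guide the modification of spliceosomal RNAs, 3 were called higher and 2 held, SCARNA4 (2.78 ± 0.30) and SCARNA13 (1.45 ± 0.21).

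SNORD14E had 14.5 CPM in the lowest, a median of 40.4 and 72.9 CPM in the highest of the 6 synthetic libraries, against 0.878, 1.24 and 5.63 CPM in the 12 plasmid libraries. Its log2 difference was 4.48 ± 0.36 (SE, edgeR, adjusted p = 5.2e-07), 3.99 against gRNA and 4.97 against pre-gRNA. The summed fit gave it an adjusted p of 0.00476. SNORD14C ranged from 10.2 to 52 CPM with the synthetic guide (median 29.7) and from 0.722 to 3.61 CPM with plasmid guides (median 1.30), a log2 difference of 4.13 ± 0.33. SNORD14D had 20.9 to 102 CPM (median 57) against 1.52 to 8.58 CPM (median 3) and a difference of 3.91 ± 0.33. The groups did not overlap for any of these genes, which was a condition of the naming rule. SNORA66 had 6.02 to 34.4 CPM (median 20.1) against 0.399 to 3.19 CPM (median 1.23), and SNORD101 had 6.15 to 32 CPM (median 18.6) against 0.479 to 3.39 CPM (median 1.5). Their log2 differences were 3.74 ± 0.35 and 3.53 ± 0.32. The lowest synthetic value of all 5 genes was in library NTC A and the highest in KD C.

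Taken as a share of all counts, snoRNA and Cajal body RNA genes made up 0.116% to 0.273% (median 0.204%) of the synthetic libraries, 0.0352% to 0.0801% (median 0.0485%) of the gRNA libraries and 0.0385% to 0.0482% (median 0.0472%) of the pre-gRNA libraries. Over same-letter sums the share was 0.190% ± 0.055 (SD, n = 3) against 0.0503% ± 0.0137 (SD, n = 6). An exact two-sided permutation test over these 9 sums gave p = 0.0119, the smallest this design allows, and 0.0357 after Benjamini-Hochberg adjustment over the 9 shares tested. The synthetic libraries B and C had higher snoRNA shares than A in both arms.

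Most of these small RNA genes lie inside introns of a host gene, so each was set beside its host. Of 183 small RNA genes tested, 172 had a host on the same strand, in 102 distinct hosts, and 167 of the 172 had a larger log2 difference than their host. Small RNA genes that passed the count filter only through the synthetic libraries can be among them. The median difference was 2.08 for the small RNA genes and 0.27 for their hosts, and the median gap within a pair was 1.55. Of the 102 hosts 13 were held higher and 64 were not called by edgeR. TAF1D, a subunit of the RNA polymerase I selectivity factor, hosts 8 of the small RNAs and had a log2 difference of 1.54, and EIF4A2, a translation initiation helicase, hosts 5 and had 1.45. RPL13A and RPL7A, ribosomal protein genes with 4 each, had 0.12 and -0.01. HSPA8, the host of the SNORD14 copies, had a difference of 1.12 ± 0.16, below the 3.91 to 4.48 of its guests, and RPS12 had 0.61 ± 0.14 (adjusted p = 0.145 in the summed fit).

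Other transcripts counted inside introns were compared in the same way. Of 193 genes annotated as sense intronic, meaning that they lie within an intron of another gene on the same strand, 182 had a tested host and 132 of these had a larger log2 difference than the host. Their median was 0.51 against -0.03 for the hosts, and 33 of 194 such genes (17%) were held higher and 0 lower by edgeR. Their share of counts was 0.0581% ± 0.00208 (SD, n = 3 sums) against 0.0425% ± 0.00821 (SD, n = 6 sums), with an exact permutation p of 0.0238 and 0.0536 after adjustment, which misses the threshold. Among 112 microRNA and other small genes with a host, 62 lay above it and the medians were -0.06 and -0.14. Reads from the unspliced host and from the small RNA itself cannot be told apart in these counts.

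**Figure D1:**
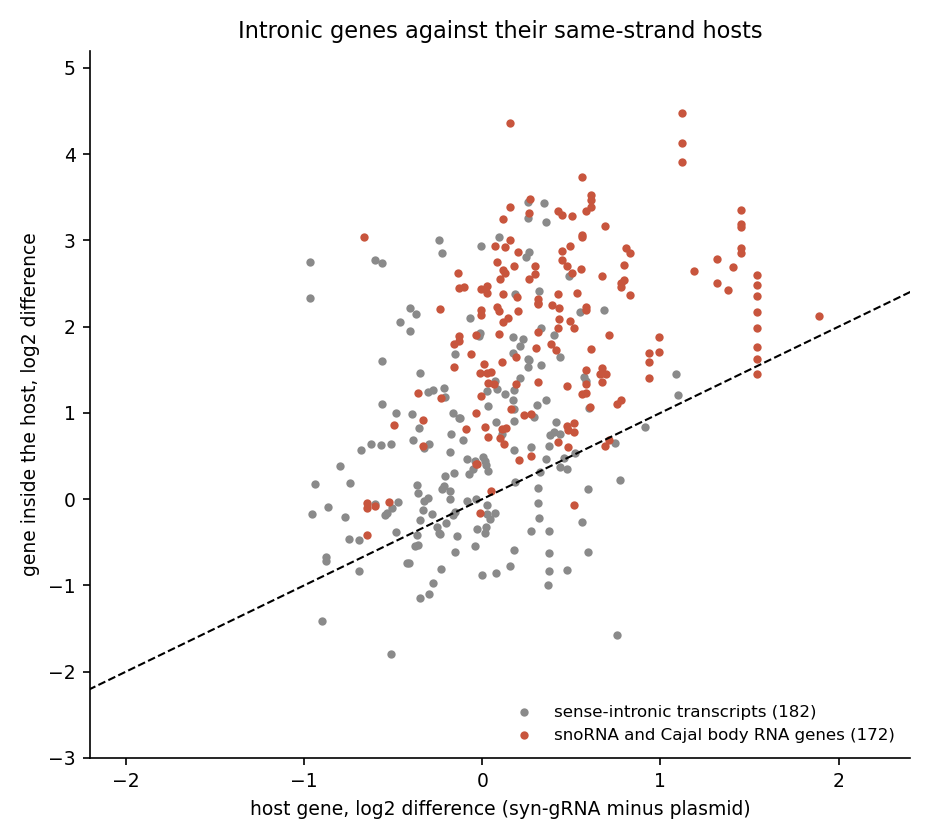
Each point is a gene inside an intron, with the log2 difference of its same-strand host on the horizontal axis and its own on the vertical axis (orange: 172 snoRNA and Cajal body RNA genes, grey: 182 sense-intronic transcripts); the dashed line marks equal differences. Of the orange points 167 lie above the line, and of the grey ones 132.

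MIR7-1, chosen after its values were seen because ciRS-7 is known for binding the microRNA miR-7, lies in HNRNPK (chromosome 9, 86584663 to 86584772, minus strand, hg19). The mature product is given from RefSeq with its seed, bases 2 to 8, in capitals.
hsa-miR-7-5p: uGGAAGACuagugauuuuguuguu

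MIR7-1 had 7.34 to 13.7 CPM in the synthetic libraries (median 9.80) and 0.638 to 4.36 CPM in the plasmid libraries (median 1.60), without overlap. The log2 difference was 2.43 ± 0.29 (SE, edgeR, adjusted p = 1.7e-05), 2.35 in the KD arm and 2.52 in the NTC arm, while HNRNPK, an RNA-binding protein gene, had 0.01 ± 0.11. In the summed fit MIR7-1 had an adjusted p of 0.0116. A poly(A) library of this kind does not measure the mature microRNA, so the MIR7-1 level is a value of the primary transcript or its precursor. MIR3153, another microRNA gene, had 5.95 to 16.5 CPM (median 11.1) against 0.309 to 2.11 CPM (median 0.741), a difference of 3.60 ± 0.25, and its host CKS2, a subunit of cell cycle kinases, had 1.05 ± 0.15.

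MALAT1 and NEAT1 were higher with the synthetic guide. MALAT1 had 1260 to 3070 CPM (median 2040) in the synthetic libraries and 111 to 708 CPM (median 389) in the plasmid libraries, a log2 difference of 2.48 ± 0.33 (SE, edgeR, adjusted p = 4.7e-05). NEAT1 had 185 to 444 CPM (median 322) against 48.8 to 166 CPM (median 109) and a difference of 1.56 ± 0.24. Neither gene's ranges overlapped, and the summed fit gave adjusted p-values of 0.0181 for MALAT1 and 0.025 for NEAT1. Of the 6 tested members of this list 3 were called higher, 2 were held, 3 were not called and the median was 1.15, and the summed fit called 2. Together MALAT1 and NEAT1 made up 0.230% ± 0.0524 of counts (SD, n = 3 sums) against 0.0497% ± 0.0253 (SD, n = 6 sums), with an exact permutation p of 0.0119 and 0.0357 adjusted.

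The SNHG genes are long non-coding hosts of snoRNAs, and 10 of 14 were called higher, 6 were held and none fell by edgeR, with a median log2 difference of 0.76. The summed fit called 5 of them and limma-voom 9. SNHG1 had 1270 to 2520 CPM (median 2010) against 280 to 1030 CPM (median 571) and a difference of 1.71 ± 0.24. SNHG12 (1.41 ± 0.20) and SNHG3 (1.2 ± 0.16) were held too. Among 10 RNA polymerase III transcripts 6 were called higher and 2 held, RN7SL1 (1.30 ± 0.18) and RN7SL2 (1.2 ± 0.17), the near-identical RNAs of the signal recognition particle, between which reads may be shared, and the summed fit and limma-voom called 2 each. RNU6-1, a copy of the U6 spliceosomal RNA, was not called (-0.32 ± 0.37, adjusted p = 0.55).

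**Figure D2:**
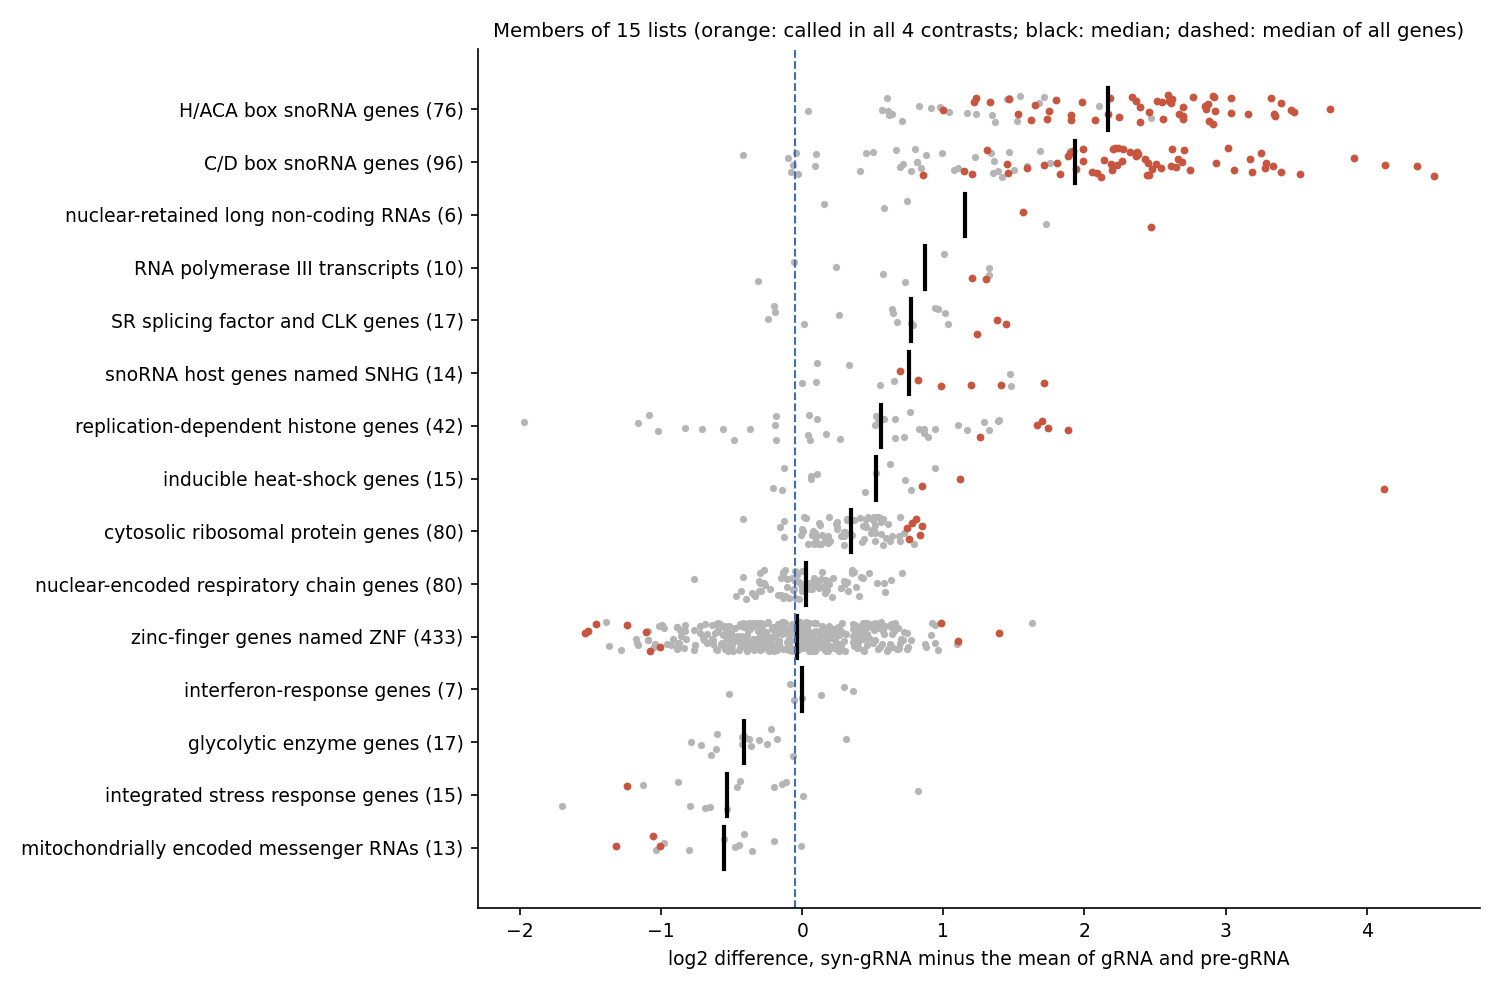
Each point is a tested gene of one of 15 lists (number tested in brackets), placed by its log2 difference between syn-gRNA and the mean of gRNA and pre-gRNA; orange points were called with 1 sign in all 4 contrasts, black bars are list medians and the dashed line is the median of all genes, -0.05. The H/ACA and C/D box lists have medians of 2.17 and 1.93, and the mitochondrially encoded messenger RNAs -0.56.

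Of the 10 protein-coding increases chosen by the naming rule, 3 are known to act in RNA processing. CCNL1, a cyclin that acts with kinases of the splicing machinery, had 463 to 855 CPM (median 628) in the synthetic libraries and 36.1 to 200 CPM (median 119) in the plasmid libraries, a log2 difference of 2.45 ± 0.37 (SE, edgeR, adjusted p = 0.00014). PCF11, a factor of messenger RNA 3′ end cleavage and transcription termination, had 206 to 363 CPM (median 352) against 53.1 to 144 CPM (median 74.9), a difference of 1.97 ± 0.18. HNRNPH1, an RNA-binding splicing regulator, had 1010 to 1480 CPM (median 1190) against 188 to 604 CPM (median 444) and 1.56 ± 0.23. None of these ranges overlapped and all 3 genes were called in each arm, but both were conditions of the naming rule. The 3 differences were between 1.53 and 2.54 in each arm. The summed fit gave CCNL1, PCF11 and HNRNPH1 adjusted p-values of 0.0266, 0.00811 and 0.0274. CCNL2, the paralog of CCNL1, was chosen after its values were seen and differed by 0.40 ± 0.12, a call that the summed fit (adjusted p = 0.25) and limma-voom (adjusted p = 0.21) did not make.

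The other named increases had varied functions. SGK1, a kinase that responds to serum and glucocorticoids, had a log2 difference of 2.06 ± 0.23, with 6.35 to 16.4 CPM against 1.28 to 4.03 CPM. RGS2, which limits signalling by G proteins, differed by 1.82 ± 0.22, PLK2, a polo-like kinase, by 1.60 ± 0.22 and KLHL11, of the kelch-like family, by 1.88 ± 0.29. TCTE3, related to dynein light chains, differed by 2.27 ± 0.28 and the H2B histone gene HIST2H2BE by 1.70 ± 0.25. FAM69A, with 1.65 ± 0.25, overlaps RPL5 and its snoRNAs SNORA66 and SNORD21 on the opposite strand, and CCNL1 overlaps a Y RNA gene on the opposite strand that itself differed by 2.69 ± 0.41. Without strand, the reads of such overlapping genes cannot be told apart.

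SR splicing factors select splice sites and CLK kinases phosphorylate them. By edgeR 10 of 17 of these genes were called higher, 3 were held and none were called lower, with 3 negative differences and a median log2 difference of 0.77. The summed fit called 3 of them higher and limma-voom 8. SRSF2 had 352 to 666 CPM (median 578) in the synthetic libraries and 159 to 259 CPM (median 187) in the plasmid libraries, a difference of 1.44 ± 0.15 (adjusted p = 4.6e-06 by edgeR). SRSF1 had 714 to 1030 CPM (median 863) against 162 to 557 CPM (median 339), a difference of 1.38 ± 0.21, and TRA2B had 276 to 405 CPM (median 341) against 114 to 167 CPM (median 147), a difference of 1.24 ± 0.12. All 3 were separated without overlap. The summed fit gave SRSF2, SRSF1 and TRA2B adjusted p-values of 0.0105, 0.0256 and 0.0106. With offsets for GC content the list's median was 0.38, and 10 members were still called higher.

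Of 15 heat-shock genes 7 were called higher by edgeR, 3 were held and none were called lower, with a median of 0.52. The summed fit called 3 higher and limma-voom 5. HSPA6, a strictly inducible HSP70, had 1.38 to 10.5 CPM (median 8.42) against 0 to 0.915 CPM (median 0.389) and a log2 difference of 4.12 ± 0.49. HSPA8, the constitutive member of that family, had 1480 to 2260 CPM (median 2100) against 698 to 1280 CPM (median 791), a difference of 1.12 ± 0.16, and DNAJA1, a J-domain partner, differed by 0.85 ± 0.13. Both HSPA8 and DNAJA1 are abundant without heat shock, so the list's name does not describe them. Interferon-response genes were low in these cells: 7 of 20 could be tested and edgeR called 0 of them, and 0 were under an unadjusted p of 0.05, with a median of 0.00. The summed fit and limma-voom also called 0, and the fit with GC offsets called 1 lower. Of 7 sensors of foreign nucleic acid that could be tested, MAVS, the mitochondrial adaptor of RNA sensing, was the only one called (-0.83 ± 0.14), and the summed fit gave it an adjusted p of 0.061.

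**Figure D3:**
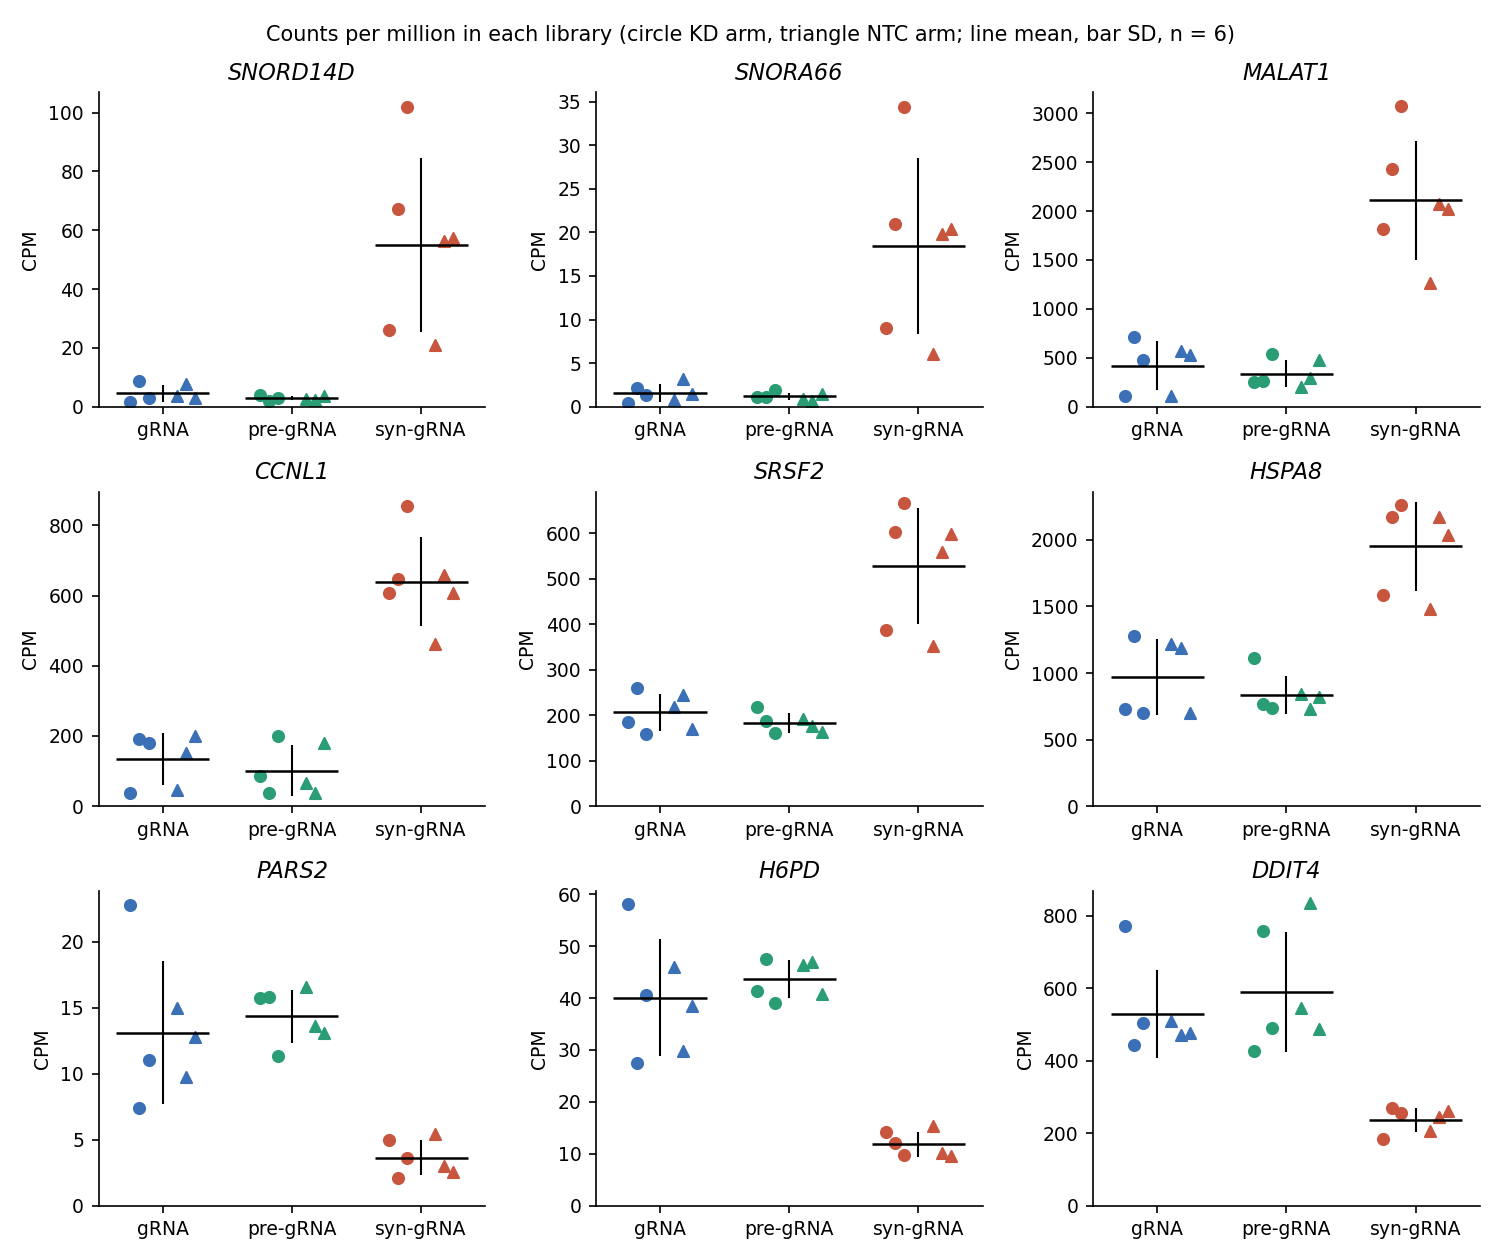
CPM of 9 genes in each of the 18 libraries, by setup (circle: KD arm, triangle: NTC arm), with the mean (line) and SD (bar) over the 6 libraries of a setup, on linear axes from 0. In all 9 panels the syn-gRNA libraries lie apart from both plasmid setups, above them for SNORD14D, SNORA66, MALAT1, CCNL1, SRSF2 and HSPA8 and below them for PARS2, H6PD and DDIT4. For SNORD14D, SNORA66, CCNL1, PARS2 and H6PD this separation was a condition of the naming rule.

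Among 42 replication-dependent histone genes 13 were called higher, 5 of them held, and 3 were called lower, with a median of 0.56. The summed fit and limma-voom each called 6 higher and 1 lower. HIST1H2BO, HIST2H2BF and HIST1H3H had log2 differences of 1.88 ± 0.29, 1.74 ± 0.27 and 1.67 ± 0.25. Most histone messages of this kind end in a stem-loop and not in a poly(A) tail, so a poly(A) library holds few of them. Of 30 genes of mitosis and S phase 4 were called higher and 6 lower, beside 12% and 15.7% of all genes, and the summed fit called 1 higher and none lower. CDK1, the kinase that drives entry into mitosis, was held higher, with 242 to 309 CPM (median 282) against 65.8 to 174 CPM (median 111) and a difference of 1.21 ± 0.20. CCNB2, one of its cyclin partners, differed by 0.53 ± 0.10 and was not called in the summed fit (adjusted p = 0.11).

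Cytosolic ribosomal protein genes differed by less. Of 80 tested, 36 were called higher by edgeR, 6 were held and none were called lower, with a median log2 difference of 0.35. RPS7, a small-subunit protein, had 1070 to 1520 CPM (median 1360) against 608 to 929 CPM (median 743), a difference of 0.81 ± 0.12. RPL21 (0.83 ± 0.14) and RPL17 (0.78 ± 0.13) were held as well, but the summed fit, which called 1 member of the list (limma-voom 18), gave them adjusted p-values of 0.061 and 0.064. Their share of all counts was 13.0% ± 1.38 (SD, n = 3 sums) against 10.9% ± 1.93 (SD, n = 6 sums), an exact permutation p of 0.19 and 0.285 adjusted. Processed pseudogenes, many of which copy ribosomal protein messages and can share their reads, were held higher in 42 of 625 cases (6.72%).

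Of the 10 protein-coding decreases chosen by the naming rule 9 are described. PARS2, which charges mitochondrial tRNA with proline, had 2.08 to 5.42 CPM (median 3.34) in the synthetic libraries and 7.37 to 22.8 CPM (median 13.3) in the plasmid libraries, a log2 difference of -1.91 ± 0.25 (SE, edgeR, adjusted p = 3.8e-05). TMEM177, a mitochondrial membrane protein, had 4.82 to 9.72 CPM (median 6.06) against 14.2 to 49.9 CPM (median 22.4) and -1.90 ± 0.26. H6PD, the hexose phosphate dehydrogenase of the endoplasmic reticulum, had 9.57 to 15.3 CPM (median 11.1) against 27.5 to 58.2 CPM (median 41.1) and -1.82 ± 0.17, with -1.82 in both arms. All 3 were separated without overlap, as the naming rule required. The summed fit gave PARS2, TMEM177 and H6PD adjusted p-values of 0.0141, 0.0174 and 0.00828.

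Lower levels were also measured for AHNAK2, a large scaffold protein (-1.72 ± 0.23), RTN4RL1, a relative of the Nogo receptor (-1.71 ± 0.31), and CSPG4, a cell surface proteoglycan (-1.69 ± 0.25). MAPK4, an atypical MAP kinase, differed by -1.66 ± 0.20, C14orf132 by -1.59 ± 0.22 and ICOSLG, a ligand of a T cell costimulatory receptor, by -1.58 ± 0.23. CSPG4 and ICOSLG overlap other annotated genes. Of non-coding genes FOXD2-AS1 (-1.12 ± 0.19) and THRIL (-0.94 ± 0.14) passed the rule, and THRIL overlaps BRI3BP on the opposite strand, which differed by -0.88.

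Genes of stress responses and metabolism were compared next. Of 15 integrated stress response genes, the targets of translational control by ATF4, 6 were called lower and 1 higher by edgeR, with 1 held lower and a median of -0.53. The summed fit called 1 lower and none higher, and limma-voom 3 lower. DDIT4, an inhibitor of mTORC1, had 184 to 269 CPM (median 250) against 426 to 835 CPM (median 497), a log2 difference of -1.24 ± 0.17 (adjusted p = 6.4e-05 by edgeR, 0.025 in the summed fit). JUN, a subunit of the AP-1 transcription factor, had 403 to 471 CPM (median 430) against 748 to 1300 CPM (median 1070) and -1.22 ± 0.14, while its list of 23 immediate early genes had 4 called higher and 3 lower, with 2 held lower, JUN among them, and 2 called lower in the summed fit. Of 17 glycolytic enzymes 5 were called lower, none were held and the median was -0.41. GC offsets moved the median to -0.12, with 5 of the 17 enzymes called lower in that fit as well. The summed fit and limma-voom called 0 of them, with 2 and 3 under an unadjusted p of 0.05. GAPDH itself differed by -0.07 ± 0.25 and was not called (adjusted p = 0.87). XBP1, a transcription factor of the unfolded protein response, differed by -0.81 ± 0.14 (adjusted p = 0.068 in the summed fit) and DGCR8, the RNA-binding partner of Drosha in microRNA processing, by -1.09 ± 0.16, the only member of 14 microRNA processing genes called.

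Mitochondrially encoded messenger RNAs were lower. By edgeR 11 of 13 were called lower and none higher, 3 were held and the median log2 difference was -0.56. MT-CYB, of respiratory complex III, had 250 to 276 CPM (median 268) in the synthetic libraries and 460 to 1020 CPM (median 647) in the plasmid libraries, a difference of -1.32 ± 0.16. MT-CO2, of complex IV, had 952 to 1210 CPM (median 1080) against 1580 to 3240 CPM (median 2200) and -1.01 ± 0.15, and MT-ND3, of complex I, differed by -1.06 ± 0.18. The summed fit called 3 of the list lower and limma-voom 6. All mitochondrial genes together made up 3.82% ± 0.187 of counts (SD, n = 3 sums) against 4.41% ± 0.466 (SD, n = 6 sums), a difference that the exact permutation test did not separate (p = 0.0952, 0.171 adjusted). This share is not that of the messenger RNAs alone. It includes the 2 mitochondrial ribosomal RNA genes, both called higher by edgeR, and 22 tested tRNA genes, 5 called higher and 12 lower. Of 80 nuclear-encoded genes of the respiratory chain 8 were called higher and 3 lower, none were held and the median was 0.02, and the summed fit called 0, with 6 under an unadjusted p of 0.05. ATP5B, of the ATP synthase, differed by -0.13 ± 0.21.

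The lists not described so far had between 0 and 7 held members in a direction. Among 433 genes named ZNF 26 were called higher and 60 lower, 3 and 7 were held, and the median was -0.04. Cholesterol synthesis genes had 3 of 23 called higher and 2 lower, and MSMO1, a sterol methyl oxidase, was held with 89.7 to 116 CPM against 18.2 to 61.7 CPM and a log2 difference of 1.47 ± 0.19. Of 36 proteasome genes 5 were called higher and 1 lower, of 18 p53 targets 6 lower, of 17 hypoxia-inducible genes 1 higher and 6 lower, and of 15 NRF2 targets 2 lower. The summed fit called 0 p53 targets (5 under an unadjusted p of 0.05) and limma-voom 3, all lower, and for hypoxia-inducible genes these fits called 1 and 4, all lower. In the summed fit 3 ZNF genes were called higher and 7 lower, 1 cholesterol synthesis gene was called higher, and 0 proteasome genes and 0 NRF2 targets were called, with 3 and 1 under an unadjusted p of 0.05. The 21 genes of the exosome and of nonsense-mediated decay had 1 called higher and 5 lower, and 20 core proteins of the snoRNA particles had 3 and 3. Of 31 LINC genes 5 were called higher and 2 lower, and of 17 ER chaperone genes 4 and 3. For the exosome, snoRNA particle and ER chaperone lists the summed fit called 0 genes, with 5, 3 and 5 under an unadjusted p of 0.05, and limma-voom called 3, 1 and 3. Among the marker lists HAND1 and RET were held lower (-1.09 ± 0.20 and -0.95 ± 0.17, with adjusted p-values of 0.056 and 0.053 in the summed fit, and 0.051 for RET with limma-voom), and so was FOSL2 of the mesenchymal list (-1.26 ± 0.20), while no kidney-lineage gene was held.

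The direction of change went with the base composition of genes. Across 14036 protein-coding genes the log2 difference had a Spearman correlation of -0.51 with the GC content of the gene's longest transcript, a description across genes that share libraries. The median difference was 0.27, 0.14, -0.19, -0.35 and -0.34 from the lowest to the highest of 5 equal bins of GC content. The genes held higher numbered 50, 45, 29, 17 and 5 in these bins, and those held lower 4, 22, 93, 122 and 53. Held increases had a median GC of 42.9% and a median length of 3890 bases in the deposited tables, held decreases 53.5% and 5450 bases, and all protein-coding genes 48.9% and 4960 bases. The difference between gRNA and pre-gRNA, which gave 0 calls by edgeR, had a correlation of -0.54 with GC in the same genes, so a slope of this kind was also present between the 2 plasmid setups.

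With offsets that remove the relation to GC content in each library (a correlation of 0.018 afterwards), 3692 genes were called higher and 3638 lower, and 1263 and 899 were held. This fit covered only the 19551 genes with a known GC content. The snoRNA medians were 1.78 for C/D box and 2.07 for H/ACA box genes with these offsets. Of 92 C/D box genes in this fit 76 were called higher, and of 74 H/ACA box genes 69. Mitochondrial messenger RNAs had a median of -0.83 with 12 of 13 called lower, and ribosomal protein genes 0.35 with 32 called higher. Library GC itself, weighted by counts, was 48.7% ± 0.326 (SD, n = 3 sums) with the synthetic guide and 49.9% ± 1.70 (SD, n = 6 sums) with plasmid guides, an exact permutation p of 0.274 and 0.308 adjusted. The part of base composition in the differences between setups was not tested beyond these offsets.

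Protein-coding genes made up 89.8% ± 0.447 of counts in the synthetic libraries (SD, n = 3 sums) and 91.3% ± 0.426 in the plasmid libraries (SD, n = 6 sums), with an exact permutation p of 0.0119 and 0.0357 adjusted. By library this share was 89.2% to 90.5% in the syn-gRNA setup, 90.7% to 91.7% in gRNA and 90.8% to 91.8% in pre-gRNA, without overlap. Beside the 2.77% held higher among all genes, held increases in other non-coding classes were 73 of 2316 antisense genes (3.15%), 38 of 844 lincRNA genes (4.5%) and 16 of 303 processed transcripts (5.28%). Held decreases in these classes numbered 20, 6 and 2. In bulk libraries like these, more cells of a kind and more RNA per cell cannot be told apart.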

How the data were processed

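Read counts per gene of 24 libraries were deposited in 4 tables with identical values. Per the submitters' processing notes the authors used Trim Galore, STAR 2.7.3a, featureCounts and DESeq2 with hg19. The deposited values are raw counts, not normalized by the authors, and how multi-mapping reads were treated is not given in the sources used here.

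A gene was kept where 3 or more of the 18 libraries had 10 or more counts. Kept genes were tested with edgeR 4.0.16 (R 4.3.3, TMM scaling, quasi-likelihood F test, Benjamini-Hochberg adjustment, threshold 0.05). Comparisons across both arms came from a model of setup with arm as a covariate. Those within an arm and between arms came from a model of 6 groups. CPM are TMM-scaled. Alternatives used DESeq2 1.42.0, limma 3.58.1 (voom with a same-letter correlation), RLE scaling, no filter, protein-coding genes alone, a fold minimum of 1.5, all 24 libraries, GC offsets, each arm alone, same-letter sums and left-out libraries. GENCODE release 29 gave a type for 93.2% of genes. The scripts were tested on simulated data.

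Named genes were held, had a mean of at least 50 counts and did not overlap between synthetic and plasmid libraries: up to 10 protein-coding genes a direction, 5 snoRNAs and 3 other non-coding genes a direction, then up to 4 held members of each list, or the 2 most abundant where none was held. Not every gene chosen is printed. Members and lists were chosen with earlier results of these data known. For shares, same-letter sums were permuted exactly, with a two-sided p. The column letters A, B and C do not state replicate numbers, and the same-letter pairing was read from the data.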

Additional observations from a re-analysis of the deposited data

Results flagged for a closer look

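For 37 values the 6 libraries of each setup were searched for a single library far from the others, 111 groups in all, and 2 passed Dixon's 95% critical ratio of 0.625. Chance alone flags about 1 in 20 groups. MAPK4 had 4.73 CPM in pre-gRNA NTC B, while the other 5 libraries of that setup lay between 6.37 and 7.28 CPM (ratio 0.643). ICOSLG had 1.21 CPM in syn-gRNA KD C, while the other 5 lay between 1.83 and 2 CPM (ratio 0.785).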

How the results depend on the processing

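Among the genes chosen for naming, no called log2 difference changed sign in those of the 38 alternatives that gave single-gene values. The fold minimum and the arms alone gave counts only, and the signs of other called genes were not compared. List medians near 0 that no test calls changed sign in places, such as that of the ER chaperone genes, -0.00489 and 0.0461 with GC offsets. No paired analysis was possible because the columns carry letters and not the replicate numbers of the labels. The same-letter sums and correlation rest on the letters alone. Calls against all plasmid libraries were 1343 higher with protein-coding genes alone, and 568 higher and 265 lower with same-letter libraries summed, 872 and 721 with limma-voom and a same-letter correlation, 655 and 339 with a fold minimum of 1.5, and 3692 higher with GC offsets. Leave-one-out, here of a single library or of both same-letter libraries of a setup, gave 1230 to 3673 higher and 1369 to 4314 lower. Held genes were 94 and 90 with protein-coding genes alone, 220 and 111 with limma-voom, 299 and 48 with all 24 libraries, 182 and 6 with the fold minimum, 1263 and 899 with GC offsets, 259 and 27 with each arm alone, and 764 lower with DESeq2. Leave-one-out gave 40 to 719 and 2 to 563. Calls against gRNA were 1916, 0, 345, 2149, 517 and 5413 with protein-coding genes, sums, limma-voom, all libraries, the fold minimum and GC offsets, and 1205 to 4413 with leave-one-out. Calls against pre-gRNA were 3031, 239, 928 and 884 with protein-coding genes, sums, limma-voom and the fold minimum, and 2157 to 9104 with leave-one-out. KD arm calls were 2163 with DESeq2, 264 with protein-coding genes, 503 with all libraries, 287 with the fold minimum, 2867 with GC offsets and 338 with the arm alone, and 100 to 1950 with leave-one-out. NTC arm calls were 2018, 292, 465, 242 and 3002 under the first 5 of these, and 51 to 1931 with leave-one-out. The cause of these shifts was not tested. With 3 libraries a group, genes with few counts limit what could be detected.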
